A study of Mus musculus with 21 samples.

Results

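The Bcl6 gene and the 151 kb upstream of it were read as a set of DNase hypersensitive sites, stretches of open chromatin where DNase I cuts nuclear DNA readily. Every peak that overlapped mm9 chr16:23955000-24140000 in the peak tables of 18 livers was kept, with no condition on its values. Peaks that shared 1 bp or more across livers were merged, which gave 32 sites in this window of the 68362 regions in the genome. Bcl6 lies on the minus strand at chr16:23965138-23988938, so upstream means higher coordinates. No other annotated gene starts or ends in the window. The nearest genes outside it are Rtp2, 24127 bp beyond the downstream edge, Sst, 64070 bp beyond the same edge, and the lincRNA 1110054M08Rik and Lpp, 251698 and 253436 bp beyond the upstream edge.

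BCL6 is a transcriptional repressor with a BTB domain, which recruits corepressors, and zinc fingers, which bind DNA. It is best known in germinal centre B cells and follicular helper T cells, which need it. In mouse liver the gene is expressed more in males than in females and is repressed by growth hormone-activated STAT5, and BCL6 can occupy DNA sequences that STAT5 also binds.

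The question of the study was which open chromatin sites of male liver follow the pulses of STAT5 activity that endogenous growth hormone sets off. Whole livers came from untreated CD-1 (ICR) male mice of 8 to 10 weeks with intact pituitaries, 1 library per mouse, and a gel shift assay of STAT5 binding to DNA placed each liver in the class STAT5_High (8 livers) or STAT5_Low (10 livers). All mice shared strain, sex, age and the lack of treatment, and the classes were set by the assay. A further 3 of the 21 livers carry the word outlier in their titles, since their DNase profile looked like that of the opposite class, and were not analysed here, so the classes compared were in part selected on the profile itself. In 2 of these 3, title and treatment label give different classes.

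Libraries held 12890880 to 23395665 tags (sequenced reads kept for peak calling) per liver, and the peak lists 29626 to 45144 peaks, except STAT5_High replicate 4 with 18673. The livers' titles carry 3 prefixes, called collections here although the labels do not say what they stand for, G74A (2 STAT5_High and 5 STAT5_Low livers), G92 (3 and 2) and G99 (3 and 3). Hepatocyte markers had a promoter peak in 17 or 18 livers at all 8 genes examined, among them Alb and Hnf4a. Lymphocyte markers, checked because Bcl6 is also a lymphocyte gene, had none in any liver at Cd3e, Cd4, Cd79a, Cd79b and Ms4a1, and a peak in 2 livers at Ptprc and 1 at Cxcr5. All 5 macrophage markers had no promoter peak in any liver. Of 5 endothelial markers, Stab2 had one in 18 livers, Kdr in 4, Pecam1 in 1 and the other 2 in none. Reln alone of 4 stellate markers (17 livers) and Sox9 alone of 4 cholangiocyte markers (18 livers) had one.

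Of the 32 sites, 23 lay upstream of the gene, 1 covered the transcription start, 6 lay in introns, 1 overlapped coding exon 5 and 1 lay downstream. A peak in all 18 livers was found at 3 sites (9.38%, against 17.2% of all regions), and 13 sites (40.6%, against 19.8%) had a peak in 14 to 17 livers. A further 7 sites had a peak in 5 to 13 livers, 2 in 2 to 4 livers and 7 in a single liver. The single-liver sites were narrow, with a median width of 214 bp, against 990 bp for the sites of all livers. Width is that of the merged peaks, so a site of more livers tends to be wider through the merging itself. The number of peaks in the window was 11, 21 and 23 (lowest, median, highest) in STAT5_High livers and 17, 19.5 and 23 in STAT5_Low livers. The means were 20.1 ± 3.91 (SD, n = 8) and 19.7 ± 1.57 (SD, n = 10), and without STAT5_High replicate 4, the liver with 11, the STAT5_High mean was 21.4.

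**Figure D1:**
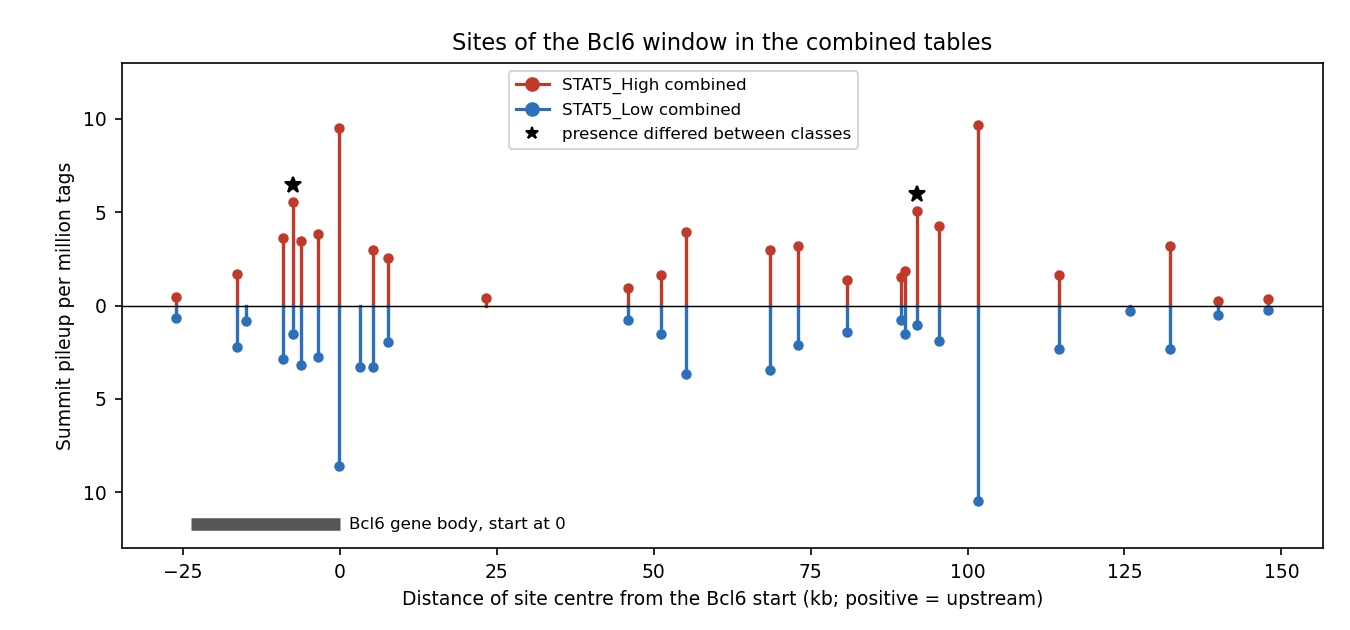
Scaled pileup (pileup per 1000000 tags) (y axis) of each site in the 2 tables of pooled reads, STAT5_High upward in red and STAT5_Low downward in blue, against the distance of the site's centre from the Bcl6 start in kb (x axis, positive values upstream). Stars mark the sites 7.5 kb inside the gene (5.56 against 1.54) and 91.9 kb upstream (5.09 against 1.05), whose presence in single livers differed between the classes, while the start and the site 101.7 kb upstream were the tallest in both tables.

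Open chromatin at Bcl6 differed between the classes at few sites. A site in intron 1, 7.5 kb inside the gene, and a site 91.9 kb upstream had a peak in 8 of 8 STAT5_High livers each. In STAT5_Low livers they had a peak in 1 of 10 and 0 of 10. The start itself and the tallest upstream site were open in all 18 livers. Presence of a peak was compared by a two-sided exact test of Fisher with p-values adjusted (Benjamini-Hochberg) over the 15631 regions occupied in 5 to 13 livers. It tested 7 of the 32 sites and, at an adjusted p under 0.05, called 2 higher in STAT5_High and 0 higher in STAT5_Low. Of all tested regions, 0.979% were called higher in STAT5_High and 0.134% higher in STAT5_Low. At an unadjusted p under 0.05, 1 site leaned towards STAT5_Low. Of the 15631 regions, 1265 leaned towards STAT5_Low and 940 towards STAT5_High at that level. In bulk liver, a site open in fewer cells and a site less open in each cell cannot be told apart, and a site without a called peak can still be open below the depth of its library.

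The intron 1 site at chr16:23981110-23981758 had a scaled pileup of 3.20, 5.50 and 10.6 (lowest, median, highest) in the 8 STAT5_High livers. Scaled pileup is the number of extended reads stacked at the summit, the highest point of a peak, per 1000000 tags of the library. It was 3.42 in STAT5_Low replicate 7, the single STAT5_Low liver with a peak. Where a peak was called the classes overlapped, since 2 STAT5_High livers were below that value. The adjusted p of the presence difference was 0.0370 (Fisher's exact test). The call was lost with all regions tested (adjusted p = 0.162), and under stratification by collection (0.0979) and without G99 (0.358), where no region of the genome was called. Of the STAT5_High livers, 2 of 2 in G74A, 3 of 3 in G92 and 3 of 3 in G99 carried the peak, and of the STAT5_Low livers 0 of 5, 1 of 2 and 0 of 3. Its fold enrichment over local background was 3.93 ± 1.06 (SD, n = 8) in STAT5_High and 2.33 in the STAT5_Low liver. Elsewhere in the genome, 16 regions were occupied in exactly the same livers.

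The intron 1 site holds a second annotated start of Bcl6. The RefSeq promoter table (build GRCm38.p6) gives 2 promoters for the gene, 250 bases before to 50 bases after a start, and each matched the mm9 chromosome exactly once. The first lay within the site at the transcription start and the second, around a start at chr16:23981370, lay whole within the intron 1 site. The 214 bases printed here begin at that inner start and run upstream of it, and they are shown because they carry 3 matches to TTCNNNGAA, the letters of the consensus STAT5 site and a pattern that reads the same on both strands. Capitals mark the matches, and the letters are those of the mm9 plus strand, 5′ to 3′, at chr16:23981370-23981583.
Intron 1 site: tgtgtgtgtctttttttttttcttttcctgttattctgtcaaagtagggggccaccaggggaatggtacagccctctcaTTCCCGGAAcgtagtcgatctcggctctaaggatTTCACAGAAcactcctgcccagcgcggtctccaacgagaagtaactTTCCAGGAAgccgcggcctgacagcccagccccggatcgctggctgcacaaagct
All 8 STAT5_High summits lay 2 to 30 bp from the centre of a match, with a median of 12 bp. The summit of STAT5_Low replicate 7 lay 53 bp from the nearest one.

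The site 91.9 kb upstream, at chr16:24080535-24081097, was split completely by class. Its scaled pileup in STAT5_High replicates 1 to 8 was 2.75, 1.45, 6.40, 7.70, 14.7, 3.51, 3.54 and 2.47, and 0 of 10 STAT5_Low livers had a peak. The 3 highest values were those of the 3 STAT5_High livers of collection G92, with a mean of 9.62 ± 4.49 (SD, n = 3), against 2.1 ± 0.92 (SD, n = 2) in G74A and 3.18 ± 0.61 (SD, n = 3) in G99. The presence difference had an adjusted p of 0.00744 (Fisher's exact test), the smallest adjusted p of this test, and 46 regions elsewhere had the same split. Over 27 alternatives the difference ran from 75 to 100 percentage points. The call was lost in 4 of them, where no region of the genome was called. Without STAT5_High replicate 4 the mean of the remaining 7 livers was 4.98 ± 4.57 (SD), against 5.32 ± 4.34 (SD, n = 8) with it. Fold enrichment was 5.69 ± 2.46 (SD, n = 8). A peak was called here in the pooled STAT5_Low reads, with a scaled pileup of 1.05 and a fold enrichment of 2.04.

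The central 300 bases of the 91.9 kb site, chr16:24080666-24080965 on the mm9 plus strand, are shown because they hold 2 matches to the STAT5 letters, in capitals.
Site 91.9 kb upstream: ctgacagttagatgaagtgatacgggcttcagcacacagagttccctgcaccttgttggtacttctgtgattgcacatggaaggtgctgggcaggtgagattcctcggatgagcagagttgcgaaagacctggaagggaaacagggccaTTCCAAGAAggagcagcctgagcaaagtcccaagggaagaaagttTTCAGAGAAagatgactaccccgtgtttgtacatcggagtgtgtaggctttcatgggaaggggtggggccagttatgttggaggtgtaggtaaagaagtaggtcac
The summits of the 8 STAT5_High livers lay 1 to 101 bp from the nearest match, and 4 of them within 50 bp. A match to the C/EBP letters TTGCNNAA, the site of a family of hepatocyte transcription factors, lay 5.5 to 69.5 bp from the summits. It lay within 50 bp of 5 summits, at a median of 38.5 bp, against 51.5 bp for the nearest STAT5 match.

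The other 5 sites tested for presence did not pass. The smallest p among them belonged to the site 3.2 kb upstream, chr16:23991997-23992353, found in no STAT5_High liver (0 of 8) and in 6 of 10 STAT5_Low livers (p = 0.0128, adjusted p = 0.181, Fisher's exact test). Where present its scaled pileup was 2.39, 3.44 and 5.75 (lowest, median, highest), and the 6 livers came from all 3 collections. The pooled STAT5_High table had no peak there, against 3.29 in the pooled STAT5_Low table. The site 3.4 kb inside intron 1, chr16:23985150-23985833, was occupied in 7 of 8 STAT5_High livers and 4 of 10 STAT5_Low livers (p = 0.0656, adjusted p = 0.354, Fisher's exact test), with a scaled pileup of 4.5 ± 1.55 (SD, n = 7) and 3.83 ± 0.54 (SD, n = 4) where present. The classes overlapped at this site in both presence and height. The sites 26.1 kb downstream of the start (1 of 8 and 5 of 10 livers), 7.7 kb upstream (7 and 5) and 89.3 kb upstream (3 and 3) were the rest.

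Height was compared where presence could not differ. Of the 11748 regions with a peak in all 18 livers, 3 lay in the window, the transcription start and the sites 101.7 and 132.2 kb upstream. A limma fit of log2 scaled pileup called 0 of these 3, while 3.86% of all such regions were called higher in STAT5_High and 0.238% higher in STAT5_Low. None of the 3 had an unadjusted p under 0.05 in that fit, which 910 regions of the genome had towards STAT5_High and 668 towards STAT5_Low. The median log2 difference over all these regions was -0.17, STAT5_High minus STAT5_Low.

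The start site, chr16:23988321-23989310, covers exon 1 and the upstream promoter. Its scaled pileup was 4.69, 10.2 and 14.8 (lowest, median, highest) in STAT5_High and 3.72, 9.06 and 13.5 in STAT5_Low livers. The classes overlapped almost completely, with 1 STAT5_High liver above and 1 STAT5_Low liver below the other class. The log2 difference was 0.15 (SE 0.24, 95% confidence interval -0.33 to 0.62, limma adjusted p = 0.732), and an exact permutation test over 43758 assignments of the livers gave p = 0.578 (two-sided). Means within collections were 10.9 against 7.22 in G74A, 8.35 against 8.59 in G92 and 10.6 against 12.0 in G99, so the direction differed among collections. Fold enrichment was 5.92 ± 0.75 (SD, n = 8) and 5.79 ± 1.18 (SD, n = 10).

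The start site held 5 matches to the STAT5 letters, 4 of them close together in exon 1 and 1 upstream of the start. The 250 bases upstream of the start, chr16:23988939-23989188, and the closest pair of the exon 1 matches, chr16:23988701-23988724, are shown with the matches in capitals, both on the mm9 plus strand.
Upstream of the start: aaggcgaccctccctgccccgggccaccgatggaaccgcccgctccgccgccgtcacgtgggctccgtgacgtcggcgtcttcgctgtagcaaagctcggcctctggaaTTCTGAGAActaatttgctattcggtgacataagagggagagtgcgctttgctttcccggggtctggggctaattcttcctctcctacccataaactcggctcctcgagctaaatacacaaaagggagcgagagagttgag
Closest pair in exon 1: TTCTAAGAAccccagTTCTAAGAA
The summit lay within 50 bp of a match in 6 STAT5_High livers of 8 and in 9 STAT5_Low livers of 10, with median distances of 5.5 and 4.5 bp. Most summits of both classes therefore sat at the exon 1 matches.

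The site 101.7 kb upstream, chr16:24089835-24091425, was as tall as the start. Its scaled pileup was 1.48, 10.4 and 14.7 (lowest, median, highest) in STAT5_High and 7.18, 10.1 and 15.5 in STAT5_Low livers. A single liver, STAT5_High replicate 4 with 1.48, lay below all others, and the remaining 7 STAT5_High livers fell inside the STAT5_Low range. The log2 difference was -0.29 (SE 0.27, interval -0.84 to 0.25, limma adjusted p = 0.593) and became 0.069 without that liver. Within collections the means were 11.8 against 10.1 in G74A, 8.80 against 9.50 in G92 and 9.87 against 12.6 in G99. The site had no match to the STAT5 letters. It had 1 match each to the letters of C/EBP, the glucocorticoid receptor (ACANNNTGT) and CTCF (CNAGNNGGC), at medians of 49.5, 50 and 80 bp from the 18 summits.

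The site 132.2 kb upstream, chr16:24120660-24121590, was lower than both but had the highest mean fold enrichment of the 3, with 12.4 ± 2.59 (SD, n = 8) in STAT5_High and 10.3 ± 1.90 (SD, n = 10) in STAT5_Low livers. Its scaled pileup was 1.35, 3.30 and 5.31 (lowest, median, highest) and 1.26, 2.51 and 3.26. In 5 STAT5_High livers it exceeded every STAT5_Low liver, although the classes overlapped below that. The log2 difference was 0.42 (SE 0.24, interval -0.057 to 0.89, limma adjusted p = 0.444; exact permutation p = 0.117). With each library's median over the 11748 regions subtracted it was 0.53 (limma adjusted p = 0.0577; exact permutation p = 0.00642), which also missed the threshold of the fit. The mean was higher in STAT5_High within each collection, at 3.63 against 2.58 in G74A, 3.31 against 2.13 in G92 and 3.26 against 2.52 in G99.

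**Figure D2:**
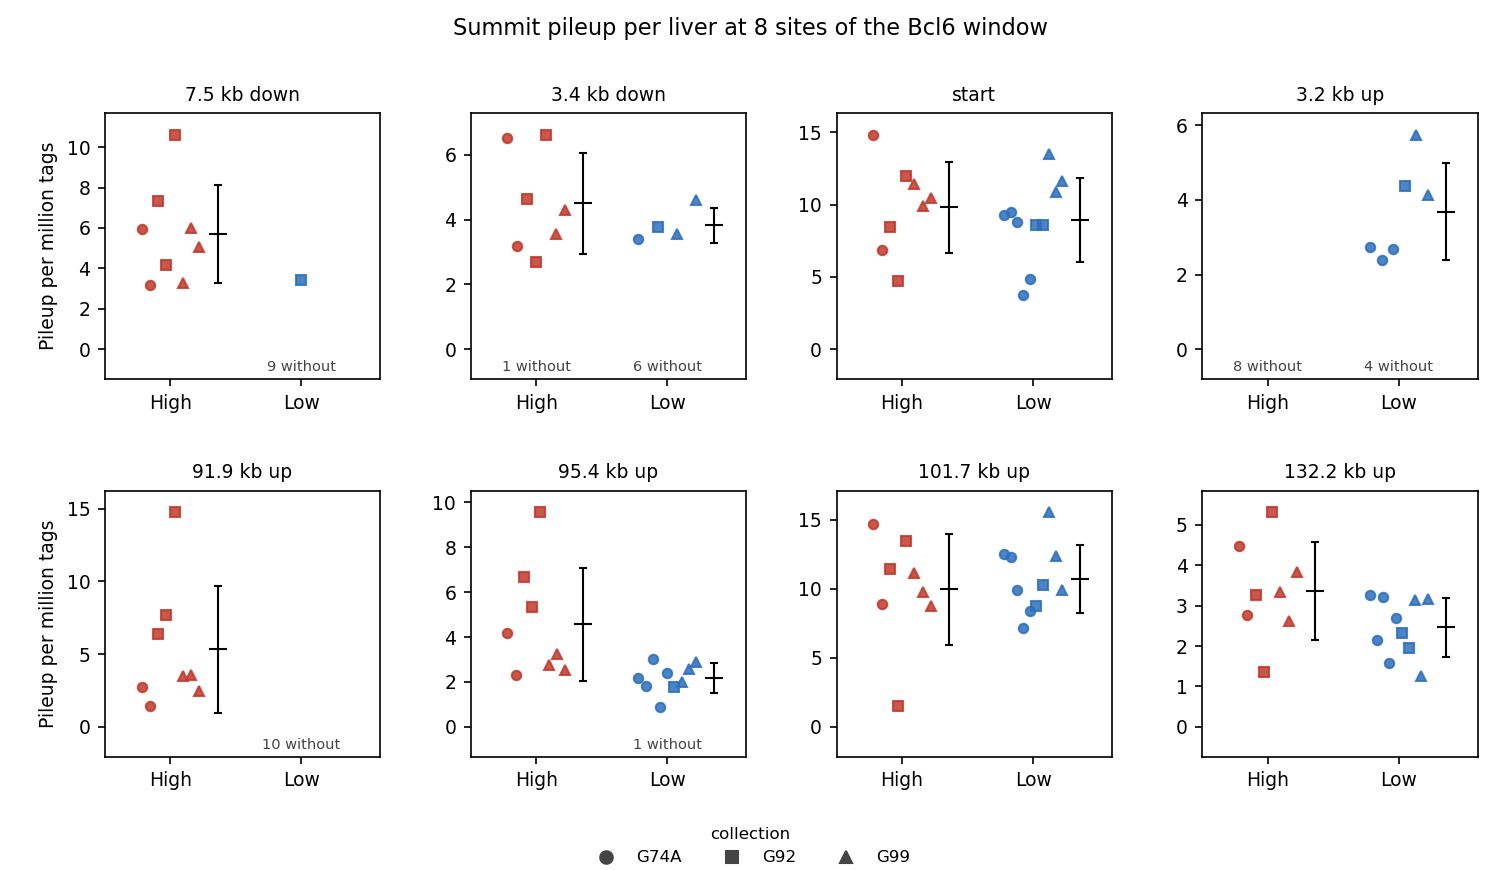
Scaled pileup (pileup per 1000000 tags) (y axis, a scale for each panel) of each liver with a peak at the 8 sites described singly, STAT5_High in red and STAT5_Low in blue, with marker shapes for the collections, bars for mean ± SD where 2 or more livers had a peak and the number of livers without a peak below. At 91.9 kb upstream 10 STAT5_Low livers had none, and the 3 STAT5_High livers of G92 (squares, 6.40 to 14.7) stood highest.

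The fit was extended to the 25264 regions with a peak in 14 or more livers, leaving out livers without one, which took in 16 of the 32 sites. It called 1 of them, the site 95.4 kb upstream, higher in STAT5_High and 0 higher in STAT5_Low, against 3.65% and 0.206% of all regions tested. Of the 16 sites, 12 had a higher and 4 a lower mean log2 pileup in STAT5_High, with a median difference of 0.17 against -0.13 over all regions. These means cover only livers with a peak, and STAT5_High replicate 4, with the lowest library median, lacked most of the 16 sites. Without that liver the median differences were 0.21 and -0.057. At an unadjusted p under 0.05 stood 4 sites, all higher in STAT5_High, where 1937 of the 25264 regions were higher and 1368 lower at that level.

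The called site, chr16:24083701-24085047, is the next site upstream of the one at 91.9 kb. Its scaled pileup was 2.29, 3.73 and 9.55 (lowest, median, highest) in 8 STAT5_High livers and 0.90, 2.17 and 3.03 in the 9 STAT5_Low livers with a peak. STAT5_Low replicate 7 had none and was left out of the fit. In 5 STAT5_High livers the site was above every STAT5_Low liver, and in 5 STAT5_Low livers below every STAT5_High liver, with overlap between. The log2 difference was 0.98 (SE 0.26, 1.97-fold, limma adjusted p = 0.0153; exact permutation p = 0.00350). The fit took each liver's highest peak, and these summits lay at different positions in the 2 classes, so the fold does not compare 1 position. At the lower position, 3 STAT5_High livers had a second peak, with scaled pileups of 2.93, 1.93 and 2.14, inside the STAT5_Low range. The 3 highest livers were again those of STAT5_High in G92, with 7.18 ± 2.16 (SD, n = 3) against 1.77 in 1 STAT5_Low liver, while means were 3.25 against 2.07 in G74A and 2.84 against 2.48 in G99. The call was lost with collection as a covariate (0.76, adjusted p = 0.0718), with library depth as a covariate (0.72, adjusted p = 0.244), without G74A (0.97, adjusted p = 0.188), without G92 (0.48, adjusted p = 0.504), and without STAT5_High replicate 3 (0.87, adjusted p = 0.0529) or 5 (0.80, adjusted p = 0.0729).

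At the 95.4 kb site the 2 classes also had their summits at different places. The highest summit lay 317 to 417 bp above the site's centre in 8 of 8 STAT5_High livers and between -229 and 174 bp in the 9 STAT5_Low livers, a difference of medians of 436.5 bp, and in the pooled tables at 340 and -65 bp. This was noticed after the values were seen and is a description without a test. A summit 300 bp or more above the centre, counting every peak of a liver, was found in all 8 STAT5_High livers and in 1 STAT5_Low liver of 10, and a lower one in 3 and 9 livers. Each peak has 1 summit, so a broad peak over both positions counted at 1 of them. The peaks of STAT5_High replicates 1, 2 and 5 (873, 781 and 1323 bp wide) also covered the median STAT5_Low summit. A peak of STAT5_Low replicate 9 (chr16:24084513-24084748) reached into the range of the upper summits, and the pooled STAT5_Low peak (1171 bp) covered both positions. Among the 25264 regions of 14 or more livers, 32 (0.127%) had summit positions that did not overlap between the classes, and 22 (0.0871%) did so with medians 100 bp or more apart. The site was the only one of the 16 members with either property.

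The 300 bases at the upper summits of the 95.4 kb site, chr16:24084564-24084863 on the mm9 plus strand, are shown because they hold the STAT5 match nearest to the STAT5_High summits, in capitals.
Site 95.4 kb upstream: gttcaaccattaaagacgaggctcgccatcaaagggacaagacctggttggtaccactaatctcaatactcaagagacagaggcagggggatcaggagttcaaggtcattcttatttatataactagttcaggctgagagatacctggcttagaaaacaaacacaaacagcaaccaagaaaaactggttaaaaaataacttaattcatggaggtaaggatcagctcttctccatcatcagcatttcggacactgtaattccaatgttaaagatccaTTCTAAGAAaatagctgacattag
The STAT5_High summits lay 53 to 153 bp from the nearest match, and none within 50 bp, while 4 STAT5_Low summits lay within 50 bp of another match near the centre of the site.

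**Figure D3:**
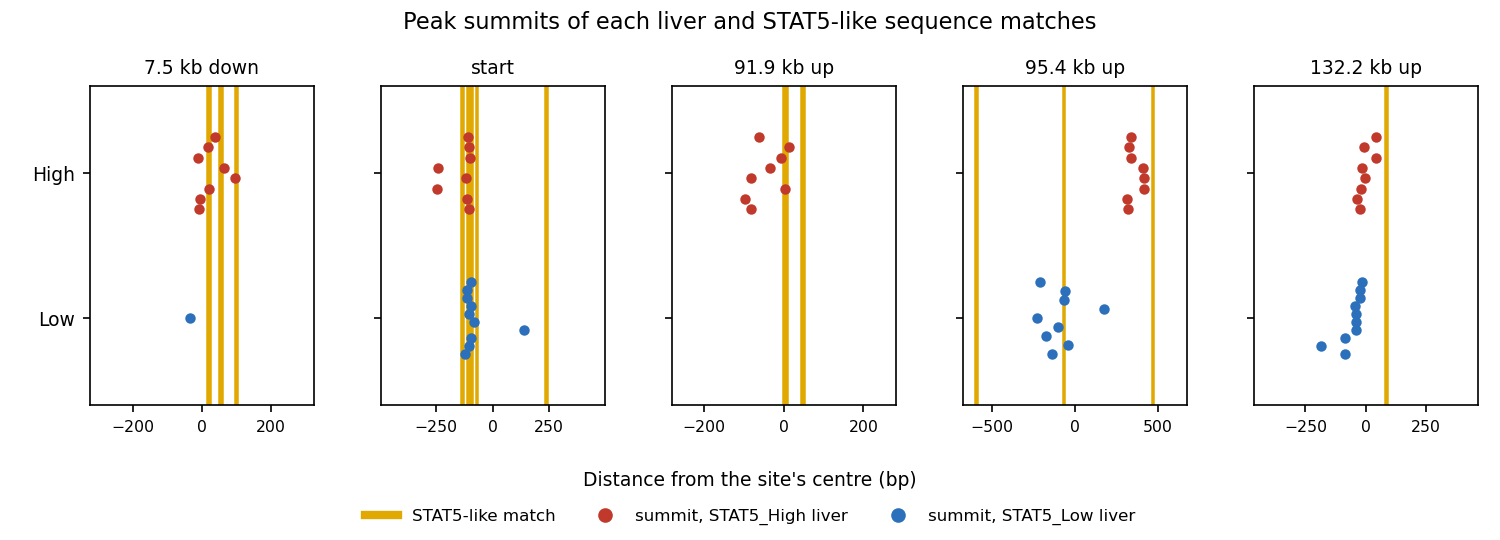
Position of the highest summit of each liver (points, STAT5_High red and STAT5_Low blue, 1 row per liver) and of matches to the STAT5 letters (yellow lines) in bp from the centre of 5 sites (x axis). At 95.4 kb upstream the STAT5_High summits lie 317 to 417 bp above the centre and the STAT5_Low summits between -229 and 174 bp, while at the start most summits of both classes lie at the exon 1 matches.

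The other 12 sites in 14 to 17 livers differed less. A peak in 7 of 8 STAT5_High livers was found at 10 of them and in 6 of 8 at the other 2, and STAT5_High replicate 4 lacked 11 of the 13 sites in this class of occupancy. Mean scaled pileup ran from 1.1 ± 0.18 (SD, n = 7) at 45.9 kb upstream to 4.61 ± 1.83 (SD, n = 7) at 55.1 kb upstream in STAT5_High livers, and from 0.90 ± 0.25 (SD, n = 9) to 3.87 ± 0.92 (SD, n = 10) at the same sites in STAT5_Low livers. The site 73.0 kb upstream, chr16:24061506-24062363, came nearest to a call, with 3.85 ± 1.18 (SD, n = 7) and 2.42 ± 0.57 (SD, n = 9), a log2 difference of 0.64 (SE 0.22) and a limma adjusted p of 0.106. It passed when fold enrichment replaced pileup (limma adjusted p = 0.0213) or library medians were subtracted (limma adjusted p = 0.0266). The sites 9.1 kb inside the gene (log2 difference 0.43, limma adjusted p = 0.336) and 90.0 kb upstream (0.49, limma adjusted p = 0.301) also had an unadjusted p under 0.05. The opposite direction was seen at 114.6 kb upstream (-0.41, limma adjusted p = 0.424), in coding exon 5 (-0.30, limma adjusted p = 0.593), at 101.7 kb, given above, and at 68.5 kb upstream (-0.11, limma adjusted p = 0.815).

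Sites of few livers were faint. The 7 sites found in 1 liver had scaled pileups of 0.68 to 1.54, except 1 in intron 1 of STAT5_High replicate 5 with 5.13 and a fold enrichment of 1.88. The site 23.2 kb upstream had a peak in STAT5_High replicates 3 and 5 only, with 0.88 and 0.96, and carries 1 match each to the STAT5, HNF4A, ONECUT and C/EBP letters in 332 bp. The site 139.9 kb upstream had a peak in STAT5_Low replicates 1, 2 and 7 only, with 0.77 to 1.16. The pooled STAT5_Low table held 1 further peak, chr16:23991346-23991566, which no single liver had.

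The local background against which a peak is called varied along the window. MACS2 divides the pileup by a background read from the same library around the site, so the fold enrichment and the pileup together give that background. In the pooled tables it was 0.84 to 1.86 in STAT5_High and 0.83 to 1.5 in STAT5_Low for sites from 10 kb inside the gene to 6 kb upstream, and 0.107 to 0.935 (median 0.354) and 0.107 to 1.09 (median 0.370) over the rest of the window. The ranges overlapped, since the site 101.7 kb upstream had the highest values of the rest, while the site in coding exon 5 had 0.278 and 0.401. Over all peaks of the genome the medians were 0.147 and 0.142. The weakest peak of a liver at 3.4 kb inside the gene had a scaled pileup of 2.70 with a fold enrichment of 2.45, and a peak at 125.8 kb upstream one of 0.68 with a fold enrichment of 4.60.

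The 2 tables of pooled reads, 128701824 tags for STAT5_High and 184748725 for STAT5_Low, had 26 and 28 peaks in the window, and 24 sites were in both. They give 1 value per class and no replicate spread. The ratio of scaled pileup, STAT5_High over STAT5_Low, had a median of 1.16 in the window and 0.900 over 57780 sites of the genome. A ratio over 2-fold was found at 4 sites, 91.9 kb upstream (4.85), 7.5 kb inside the gene (3.62), 95.4 kb upstream (2.23) and 89.3 kb upstream (2.00), against 2.95% of all sites. A ratio under 1/2 was found at 1 site, 139.9 kb upstream (0.499), against 0.336%. The sites at 89.3, 91.9 and 95.4 kb upstream are close together, with the site at 90.0 kb (1.21) among them and the tall site at 101.7 kb (0.925) beyond.

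Matches to the STAT5 letters in the central 300 bp were found in 7 of the 32 sites (21.9%), against 12.1% of all regions and 81.0% of the 153 regions called higher in STAT5_High by presence. Over their whole width, 8 sites held 17 matches. Of these, 3 were the sites called by presence or pileup, with 8 matches, and the other 5 were the start, 7.7, 23.2, 73.0 and 132.2 kb upstream. For other factors of liver the shares in the central window were 15.6% against 7.23% for FOXA (TGTTTAC), 12.5% against 7.61% for ONECUT (ATTGATT), 21.9% against 18.4% for C/EBP (TTGCNNAA), 3.12% against 1.79% for HNF4A (CAAAGTCCA), 9.38% against 9.67% for the glucocorticoid receptor (ACANNNTGT) and 9.38% against 19.8% for CTCF (CNAGNNGGC). Both strands were searched, different motifs could overlap, and a match describes letters and not binding. The G and C share of the central 300 bp had a median of 47.2% in the sites, from 37.3% to 66.7% at the start, and 47.7% in all regions.

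The height of the Bcl6 start was compared across the 18 livers with that of the other 11747 regions open in all of them, each library's median subtracted. The 5 regions most like it were near Ick (Pearson r = 0.952; chr9:78023316-78024626), over ORF61 (0.895; chr10:79447016-79448373), and nearest to Mpdz (0.868), Tmem17 (0.865) and Gm9958 (0.855), where the median of all was -0.017 and the 99th percentile 0.704. All points share the same 18 libraries, so r describes likeness only. Within the window the 101.7 kb site had r = 0.197, or 0.598 without STAT5_High replicate 4, and the 132.2 kb site 0.302.

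The related BTB zinc-finger genes (Bcl6b, Zbtb7a, Zbtb7b, Zbtb16, Zbtb17, Zbtb20) had 106 regions within 10 kb, of which 26 were tested for presence with 1 called higher in STAT5_High (0.979% of all regions) and 17 for height with 3 called higher (3.86% of all), all 4 at Zbtb20, a repressor gene on the same chromosome. In the fit of 14 or more livers 37 of their regions were tested and 7 called higher (3.65% of all), 5 at Zbtb20 and 2 at Zbtb16, and none was called higher in STAT5_Low. Zbtb20 also held most of these regions, with 68 of the 106, 17 of the 26 tested for presence, 9 of the 17 for height and 20 of the 37. Windows of the same width held 4 regions on the Sst side and 27 on the Lpp side of the Bcl6 window, with 1 and 3 tested for presence and 0 called in either.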

How the data were processed

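DNase-seq libraries of 18 single livers were used. Per the submitters' processing notes, reads were processed with Bowtie2 and MACS2 on the mouse build mm9. Per the file headers, peaks were called on each liver by MACS2 version 2.1.0.20150731 with no control library, a shift of -100, an extension of 200 bases and a q cutoff of 0.05. The authors deposited for each peak a pileup signal at the summit, not scaled between libraries, a fold enrichment ratio over the background within 10000 bases, and a -log10 q. The pooled tables hold as many tags as the livers of a class together.

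From these, pileup was scaled to 1000000 of the tags in the header. Peaks sharing 1 bp or more were merged into regions, and a liver's highest peak gave its value. Presence was compared across the genome with Fisher's exact test on regions occupied in 5 to 13 livers, and log2 scaled pileup with limma 3.58.1 (R 4.3.3, trended variance, no pseudocount) on regions of all 18 livers, both Benjamini-Hochberg adjusted with a threshold of 0.05. The fit on 14 or more livers was a listed alternative that is described because it called a site. Pooled ratios were called past 2-fold. Fisher's exact test was that of scipy 1.17.1, and single sites were also compared with exact permutation tests. The scripts were tested on simulated data. Values per liver are given for sites called by either test, the start, sites in all livers and the 2 uncalled sites with the smallest presence p. The window, lists and tests were chosen with earlier results of these data known. Genes are those of the GENCODE annotation of mm9, and sequences were read from the mm9 reference, so variants of outbred CD-1 mice are not seen. Marker genes were examined within 1000 bp of a start, and some listed genes are not reported here. Alternatives covered thresholds, list length, scaling, collections, depth and single livers, and depth ranged from 12890880 to 23395665 tags. By class, depth was 13815438 to 17504539 tags in STAT5_High and 12890880 to 23395665 in STAT5_Low. Depth sets the counting precision and bears on whether a peak is called. The number of mice sets the precision between classes.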

Additional observations from a re-analysis of the deposited data

Results flagged for a closer look

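In 21 groups of 4 to 10 livers, 4 values stood apart from the rest of their group by Dixon's ratio of gap to range, which chance exceeds in about 1 in 20 groups. The first was STAT5_High replicate 5 at the site 91.9 kb upstream, with a scaled pileup (per 1000000 tags) of 14.7 where the next highest STAT5_High liver had 7.70. The other 3 concerned STAT5_High replicate 4, the liver with the shortest peak list. At the site 101.7 kb upstream it had a scaled pileup of 1.48, against 8.72 in the next lowest STAT5_High liver. It had 11 peaks in the window, against 19 in the next lowest, and they covered 4696 bases, against 9733. The same liver had peaks at all 3 sites that were called by presence or height, and its median scaled pileup over regions of all 18 livers was 1.67, against 2.78 to 4.56 in the others. What sets this liver apart was not tested.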

How the results depend on the processing

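The 2 sites called by presence stayed 2 in each of the 18 fits that left out 1 liver (range 2 to 2), with stricter peaks, equal list lengths, another merging rule and without G92. The number was 1 with all regions tested, where the intron 1 site was not called, and 0 when stratified by collection, without G74A, without G99 and in an exact McNemar test with the replicate number as a replicate block. Under those 4 settings 0 regions of the whole genome were called. The smallest adjusted p of any region was that of the 91.9 kb site (0.0775, 0.0813, 0.0914 and 0.599). It was a tie, since the 46 regions elsewhere with the same split had the same values. Even a complete split by class did not pass there, so the lost calls do not decide whether the 2 calls are stable. Stratified by collection and without G99, the intron 1 site had a higher adjusted p than the 91.9 kb site. In those 4 settings the 91.9 kb site was still in 100% of STAT5_High and no STAT5_Low livers. The intron 1 site differed by 85.7 to 90.0 percentage points in the 3 of those 4 settings that tested it, and was not tested without G74A. Height in all 18 livers called 0 sites, and 1 (the 95.4 kb site) in 14 or more livers or without STAT5_Low replicate 7, the liver that lacked it. One-liver-out fits ranged from 0 to 1. The fit of 14 or more livers called 1 site. Its own alternatives were chosen after seeing the data, as were subtracting medians without STAT5_High replicate 4 and leaving that liver out of the peaks per liver. It called 2 with fold enrichment, with library medians subtracted, and with medians subtracted without STAT5_High replicate 4, and 0 with collection or tags as a covariate, without G74A and without G92. One-liver-out fits gave 0 to 1, and the replicate block 1. The labels do not say that livers of the same number are pairs, and correlations of same-numbered livers ran from -0.158 to 0.378. Numbers 1 and 2 (G74A in both classes) and 8 (G99 in both) had 0.378, 0.370 and 0.376. Same-numbered livers from different collections had -0.158 to 0.184. The pooled ratio passed 2-fold at 2 sites with fold enrichment, and under 1/2 at 0 with fold enrichment or after division by the median. Signs reversed, without a call, at the start with tags as a covariate (-0.11) or without G74A (-0.21), and at 101.7 kb without STAT5_High replicate 4. There, one-liver-out fits ran from -0.40 to 0.069, the latter without that liver, which gave 0.044 with library medians subtracted. Causes were not tested. Subtracting library medians moved the median of all regions from -0.17 to -0.06. No site of the window was called higher in STAT5_Low by presence or height under any alternative run.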
